A study of Mus musculus with 4 samples.

Results

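The genes described here encode cytosolic and endosomal sensors of nucleic acids and the proteins that relay their signal. The 10 genes were chosen by name, with earlier results of these data known. All 10 have a row among the 27179 genes of the deposited count table. Ddx58, Ifih1 and Dhx58 encode the RIG-I-like receptors RIG-I, MDA5 and LGP2. Trim25 encodes a ubiquitin ligase that acts on RIG-I, Mavs the mitochondrial adaptor of these receptors and Tbk1 the kinase that phosphorylates IRF3. Tlr3 encodes the endosomal receptor for double-stranded RNA, and Eif2ak2, Adar and Zbp1 encode the kinase PKR, the RNA editing enzyme ADAR1 and a sensor of Z-form nucleic acids.

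The samples were cells of the mAEC line of murine aortic endothelial cells, which line large arteries. Control cells were kept in normal medium, and the other group received conditioned medium, the supernatant of macrophages positive for TNFα and CD68. Each group held 2 libraries of total RNA, described by the series as biological replicates. The sources used here do not state the dose, the exposure time or the mouse strain of the line.

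As background, RIG-I and MDA5 are helicases that bind viral double-stranded RNA in the cytosol and join MAVS on mitochondria through their CARD domains, while LGP2 lacks CARD domains and modulates the other helicases. MAVS then activates TBK1, IRF3 and IRF7 and so the genes for type I interferon. Interferon in turn acts through its receptor and transcription factors that include IRF9 on the interferon-stimulated response element (ISRE), and most of the sensors are themselves interferon-stimulated genes. In arterial endothelium TLR3 and the RIG-I-like receptors are known to detect viral and damaged-cell RNA and to drive chemokine and adhesion molecule expression.

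In conditioned medium 4 of the 9 genes that could be tested were called lower, where 8.22% of all tested genes were. Tlr3 fell most, 1.68-fold, followed by Ifih1 at 1.47-fold and by Eif2ak2 and Adar at 1.16-fold each. DESeq2 called Tlr3 and Ifih1 but not Eif2ak2 and Adar (adjusted p by DESeq2 = 0.0520 and 0.218). The other helicase genes Ddx58 and Dhx58 were not called, with fold changes of 0.956 and 0.986, nor were Tbk1 and Trim25. Mavs stood 1.22-fold higher and missed the threshold. Zbp1 had too few counts to be tested.

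Promoter sequences are shown because most of these genes are known as interferon-stimulated. RefSeq promoter windows (GRCm38.p6, the same build as mm10) run from 250 bases before a start site to 50 bases after it, and 8 of the 10 genes matched at least 1 window, 10 windows in all. Dhx58 and Zbp1 matched none. The ISRE core was searched as GAAANNGAA and the interferon gamma-activated site (GAS) as TTCNNNGAA, on both strands, where N is any base. Matches of the 2 motifs can overlap each other. Of the 8 genes, 5 held an ISRE core (Ddx58, Ifih1, Eif2ak2, Adar and Trim25) and 2 a GAS site (Eif2ak2 and Adar). Of all 27025 genes with a window 9.76% held the ISRE core and 9.55% the GAS site. Among the genes with a core were 3 that fell and 2 that were not called. In Ifih1 cores began at bases -112 and 33 and in Eif2ak2 at 19 and 25. A core began at base 34 in Adar, 4 in Ddx58 and -9 in Trim25. The stretches of 30 bases around them are shown for comparison, with the core in capitals (TTCNNTTTC where it lies on the other strand):
Ifih1, bases -122 to -93: agaattcgcgTTCCCTTTCctgtttctcac
Ifih1, bases 21 to 50: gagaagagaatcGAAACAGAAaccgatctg
Eif2ak2, bases 9 to 38: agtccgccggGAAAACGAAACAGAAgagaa
Adar, bases 21 to 50: ttttcaaggaaacGAAAGTGAActctgggg
Ddx58, bases -7 to 23: ctgaggcagtTTCGATTTCctatggccagc
Trim25, bases -19 to 11: gcccctcctgTTCAGTTTCgattccttcct
Positions are counted from the start site, whose first transcribed base is 1. In Eif2ak2 a pair of cores overlapped to form a single stretch. The Adar stretch came from the start site farthest downstream of 3 listed, where a second core lay at base -249, and the other 2 windows of the gene held none. A match of letters is a description and not evidence of binding.

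The 2 genes that fell most and Ddx58, a helicase gene that was not called, are shown at greater length. The stretches run from base -250 to base 30 of the transcript, again with the ISRE core in capitals. All are on the minus strand: Tlr3 at chr8:45410351-45410630, Ifih1 at chr2:62646226-62646505 and Ddx58 at chr4:40239796-40240075.
Tlr3: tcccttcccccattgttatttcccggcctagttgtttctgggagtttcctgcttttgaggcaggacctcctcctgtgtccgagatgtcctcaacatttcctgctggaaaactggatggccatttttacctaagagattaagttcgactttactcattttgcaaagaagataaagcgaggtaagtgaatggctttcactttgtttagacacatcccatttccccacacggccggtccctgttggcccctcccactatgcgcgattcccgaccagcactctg
Ifih1: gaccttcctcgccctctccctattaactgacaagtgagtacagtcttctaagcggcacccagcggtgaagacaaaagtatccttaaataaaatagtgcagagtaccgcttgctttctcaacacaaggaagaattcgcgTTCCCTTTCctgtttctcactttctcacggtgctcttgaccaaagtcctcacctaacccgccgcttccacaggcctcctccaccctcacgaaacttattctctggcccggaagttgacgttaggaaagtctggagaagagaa
Ddx58: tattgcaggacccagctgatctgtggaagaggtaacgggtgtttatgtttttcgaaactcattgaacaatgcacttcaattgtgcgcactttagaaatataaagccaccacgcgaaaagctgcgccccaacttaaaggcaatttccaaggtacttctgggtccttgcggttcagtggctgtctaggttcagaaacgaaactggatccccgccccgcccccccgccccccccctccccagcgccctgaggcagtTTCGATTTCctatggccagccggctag
These letters held no exact match of the ISRE core in Tlr3, 1 upstream in Ifih1 and 1 in Ddx58 beside the start site. Near matches were not searched. The Tlr3 window lies at a start site inside the span of the gene, and other start sites were not searched.

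Library totals ran from 13815695 to 18005840 counts, so that 3 counts equalled 0.166 to 0.216 CPM (counts scaled to library size by TMM). Counts of the replicates of a group differed by more than sampling noise in both groups (chi-square over its degrees of freedom 4.70 in control, 1.51 in conditioned medium). The series does not say whether replicates were separate cultures, so p-values measure only the spread between these libraries, which may be technical. The endothelial label was checked on 12 markers: 10 had a mean of at least 10 CPM, Vwf stood near 3 CPM and Cldn5 held 1 count in 1 library. The summed endothelial level was 7102 to 7113 CPM in control and 7179 to 7250 CPM in conditioned medium. Of 12 macrophage markers 3 (Adgre1, Mrc1 and Tyrobp) were at 0 in all libraries and Ptprc held 1 count in 1 library. The summed macrophage level, nearly all of it Cd68, was 225 and 253 CPM in control against 246 and 254 CPM. Of the 11 endothelial markers tested 2 were called lower (Kdr and Emcn, log2 fold changes of -0.16 and -0.13) and 2 higher (Eng and Egfl7, 0.32 and 0.21). Their adjusted p by edgeR were 0.0116, 0.0278, 1.11e-04 and 0.00212 in that order. Over all tested genes 8.22% were called lower and 8.54% higher. Of 6 smooth muscle markers Acta2 and Myh11 stayed at or below 0.554 CPM, while Smtn stood at 224 to 239 CPM and made up most of a summed level of 229 and 238 CPM in control and 244 and 242 CPM in conditioned medium. Of 6 fibroblast markers Col1a2 and Lum were at 0. The summed fibroblast level was 27.7 and 29.8 CPM in control and 34.0 and 34.2 CPM in conditioned medium, most of it Pdgfra, which was called higher (25.3 and 27.0 against 31.5 and 32.0 CPM; adjusted p by edgeR = 0.0164). The part of these marker differences in the results was not tested. The sources used here do not say whether the groups were cultured or prepared in separate batches, and a batch that follows the groups cannot be told apart from the treatment. In bulk RNA, fewer cells that express a gene and less of its RNA per cell cannot be told apart either.

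**Figure D1:**
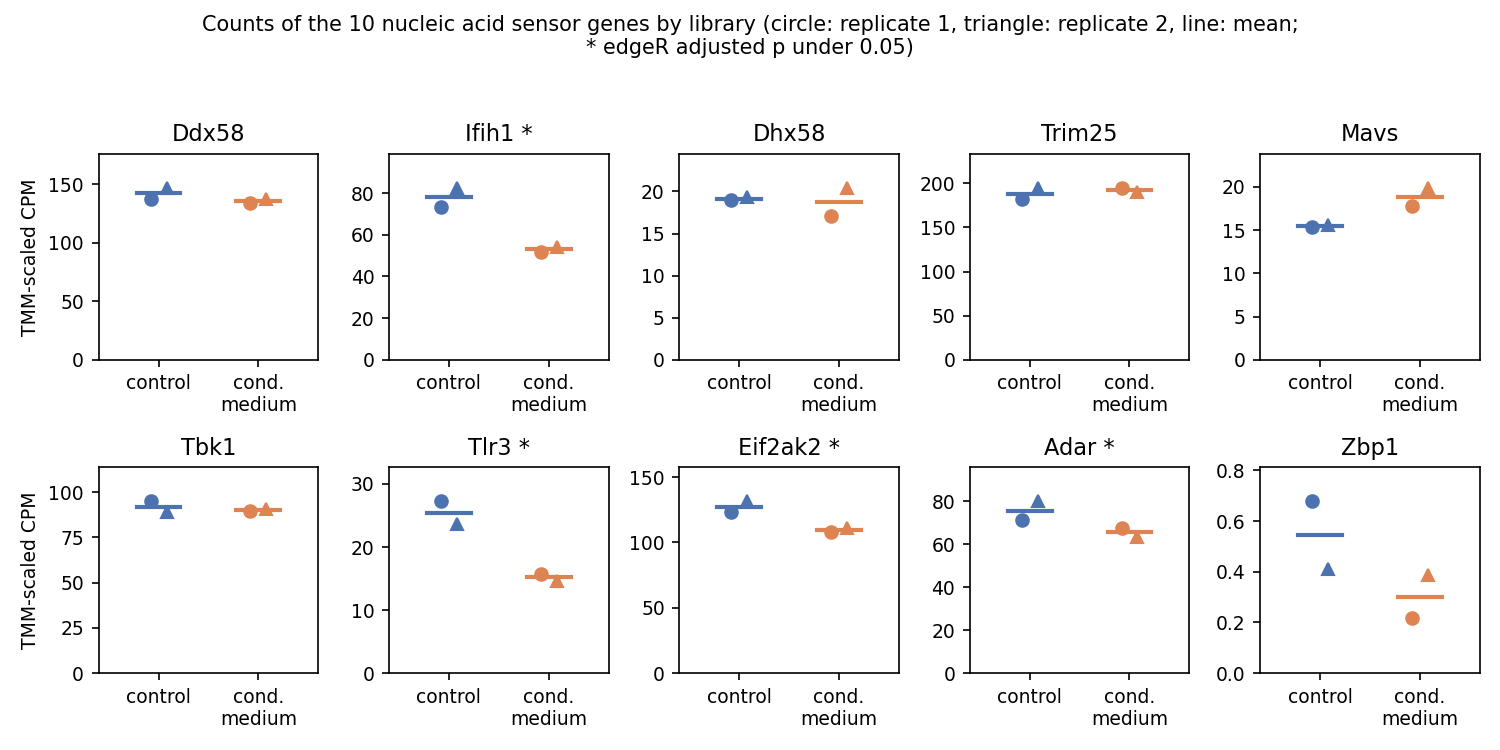
TMM-scaled CPM of each sensor gene (y axis, linear from 0) in control and conditioned medium libraries (x axis); circles are replicate 1, triangles replicate 2 and lines group means. Ifih1, Tlr3, Eif2ak2 and Adar, marked with an asterisk, lie lower in both conditioned medium libraries than in both controls. The same holds for Ddx58, which was not called, for Zbp1, which was not tested, and for 28.8% of all tested genes.

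Among the RIG-I-like receptor genes, Ifih1 was called lower and Ddx58 and Dhx58 were not. Ddx58 (RIG-I, Entrez 230073; chromosome 4, 40203777 to 40239825, mm10) had 137 and 147 CPM in the control libraries and 134 and 137 CPM in conditioned medium. The groups nearly touched, and the log2 fold change of -0.06 ± 0.05 (SE) had a 95% interval of -0.17 to 0.04 (edgeR adjusted p = 0.414). Ifih1 (MDA5, Entrez 71586; chromosome 2, 62595618 to 62646255) had 73.5 and 82.4 CPM in control and 51.9 and 54.0 CPM in conditioned medium. Both treated libraries lay well below both controls, and the mean fell from 77.9 ± 6.30 to 53.0 ± 1.44 CPM (SD, n = 2). Its log2 fold change was -0.56 ± 0.06 (95% interval -0.69 to -0.42; edgeR adjusted p = 3.30e-06). Dhx58 (LGP2, Entrez 80861; chromosome 11, 100694884 to 100704271) had 19.0 and 19.4 CPM in control, both inside the 17.1 and 20.4 CPM of conditioned medium. Its interval was wider, -0.23 to 0.19 around -0.02 (edgeR adjusted p = 0.925).

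The ratio of raw counts between genes of the same library does not depend on how libraries are scaled. Ifih1 had 0.534 and 0.562 counts per Ddx58 count in the control libraries and 0.387 and 0.393 in conditioned medium, so that the MDA5 gene was lower relative to the RIG-I gene in both treated libraries. Dhx58 had 0.138 and 0.132 counts per Ddx58 count in control and 0.127 and 0.149 in conditioned medium, and these values overlap. These ratios are a description, since 4 libraries in 2 groups cannot go below a two-sided exact permutation p of 0.333.

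Downstream of the receptors, Trim25 (Entrez 217069; chromosome 11, 88999403 to 89020294) had 182 and 194 CPM in control and 194 and 190 CPM in conditioned medium. The groups overlapped, with a log2 fold change of 0.03 and an interval of -0.07 to 0.13 (edgeR adjusted p = 0.744). Mavs (Entrez 228607; chromosome 2, 131234063 to 131248025) had 15.3 and 15.6 CPM in control and 17.7 and 19.8 CPM in conditioned medium. Both treated libraries were above both controls, but the log2 fold change of 0.29 ± 0.10 was not called (95% interval before adjustment 0.08 to 0.50; edgeR adjusted p = 0.0568). Mavs was called with upper-quartile scaling and with the replicate number as a block (adjusted p = 0.0482 and 0.0477 by edgeR, over alternatives of 0.0477 to 0.454). Tbk1 (Entrez 56480; chromosome 10, 121546455 to 121586794) had 94.9 and 89.1 CPM in control and 89.8 and 90.7 CPM in conditioned medium. Its groups overlapped and its log2 fold change of -0.03 had an interval of -0.14 to 0.08 (edgeR adjusted p = 0.779).

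Tlr3, the endosomal sensor, had the steepest fall of the 9 tested genes. Tlr3 (Entrez 142980; chromosome 8, 45395665 to 45411075) had 27.2 and 23.7 CPM in control and 15.8 and 14.6 CPM in conditioned medium. The groups stood far apart, and the mean fell from 25.5 ± 2.51 to 15.2 ± 0.826 CPM (SD, n = 2). The log2 fold change was -0.75 ± 0.10 (95% interval -0.95 to -0.54; edgeR adjusted p = 2.10e-05). Of all tested genes 0.583% had a lower log2 fold change than Tlr3 and 1.50% a lower one than Ifih1.

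PKR and ADAR1 act on the same kind of ligand, PKR by halting translation when it binds double-stranded RNA and ADAR1 by converting adenosine to inosine in such RNA. Eif2ak2 (Entrez 19106; chromosome 17, 78850504 to 78882572) had 124 and 131 CPM in control and 108 and 111 CPM in conditioned medium. The treated libraries were lower without overlap, and the log2 fold change was -0.22 ± 0.05 (95% interval -0.33 to -0.12; edgeR adjusted p = 0.00422). Adar (Entrez 56417; chromosome 3, 89714469 to 89753455) had 71.3 and 80.0 CPM in control and 67.5 and 63.6 CPM in conditioned medium. The control libraries of Adar differed from each other by more than the nearest libraries of the 2 groups did, and the log2 fold change was -0.21 ± 0.06 (95% interval -0.34 to -0.08; edgeR adjusted p = 0.0246). The count per gene does not separate the long, interferon-inducible and the short, constitutive ADAR1 transcripts. Eif2ak2 had 1.73 and 1.64 counts per Adar count in control and 1.60 and 1.74 in conditioned medium, overlapping values.

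Eif2ak2 and Adar lost their calls under some of the alternative settings. Eif2ak2 was not called by DESeq2 (adjusted p = 0.0520), without a count filter (0.0649) or without either conditioned medium library (0.115 without replicate 1 and 0.0763 without replicate 2), over alternatives that reached down to 1.15e-05. Adar was not called by DESeq2 (adjusted p = 0.218), without a count filter (0.165), without conditioned medium replicate 1 (0.0871) or replicate 2 (0.320), or without control replicate 2 (0.164), over alternatives down to 8.35e-05. Without control replicate 2 the log2 fold change of Adar was -0.13. Tlr3 and Ifih1 were called under all 15 alternatives, with adjusted p up to 0.0195 and 0.0173.

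Zbp1, which senses Z-form RNA and DNA and can start necroptosis, was barely present. Zbp1 (Entrez 58203; chromosome 2, 173206612 to 173218959) held 10 and 6 counts in the control libraries and 3 and 7 in conditioned medium, 0.677 and 0.411 against 0.216 and 0.388 CPM. The count filter left it out of the test. The ratio of conditioned medium to control was 0.576, with a 95% exact binomial interval of 0.233 to 1.35 that covers counting error only, so that a difference was not detectable at this depth.

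**Figure D2:**
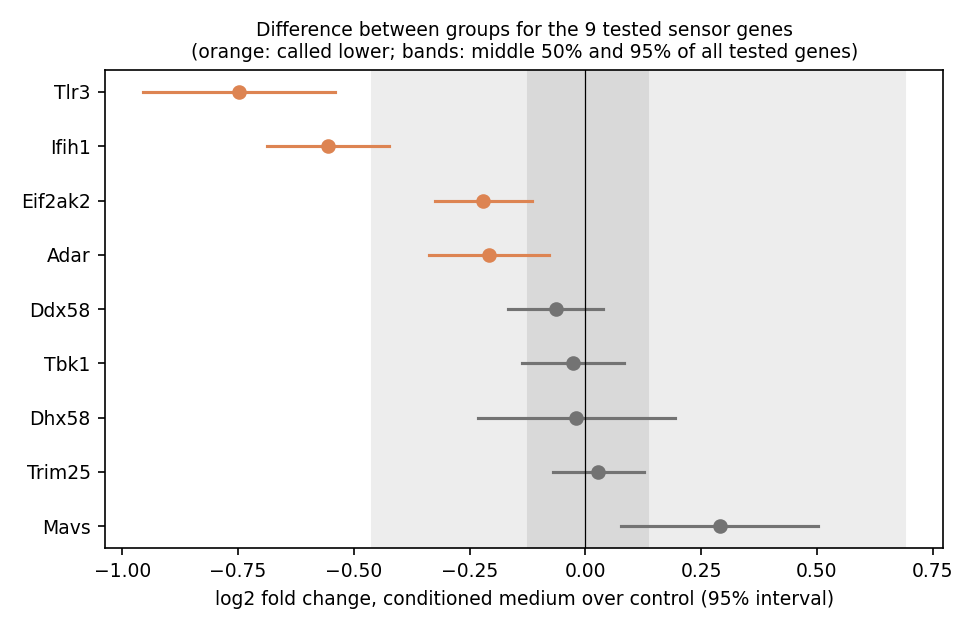
Log2 fold change of conditioned medium over control (x axis) with its 95% interval for the 9 tested sensor genes (y axis), orange where called lower; grey bands hold the middle 50% and 95% of all tested genes. Tlr3 (-0.75) and Ifih1 (-0.56) lie outside the wider band, and Mavs (0.29) is the farthest to the right.

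Over the whole set, 4 of the 9 tested genes were called lower and 0 higher by edgeR's quasi-likelihood test, against 8.22% and 8.54% of all 13897 genes tested. DESeq2 called 2 lower and 0 higher, beside 437 and 467 over all 13897 genes. By limma-voom the counts were 4 and 0, beside 1145 and 1180 over all genes. In 5 of the 9 genes both conditioned medium libraries lay below both controls, which was so for 28.8% of all tested genes. The median log2 fold change of the 9 was -0.06, beside 0.00052 over all tested genes. 

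Levels were compared between genes only per kilobase of exon, with lengths from the GENCODE basic annotation of the same build. In the control libraries Ddx58 had 36.7 ± 1.65 CPM per kilobase (SD, n = 2), Trim25 32.7 ± 1.50, Tbk1 30.4 ± 1.35 and Eif2ak2 29.6 ± 1.28. These 4 formed the upper range, in which Trim25 and Tbk1 differed by less than their summed SDs, as did Tbk1 and Eif2ak2. Ifih1 followed at 14.2 ± 1.15 and Adar at 12.6 ± 1.02 CPM per kilobase, neighbours that differed by less than their summed SDs. Dhx58 had 7.95 ± 0.118, Tlr3 5.67 ± 0.559, Mavs 4.99 ± 0.0678 and Zbp1 0.251 ± 0.0871 CPM per kilobase. In conditioned medium Ifih1, at 9.68 ± 0.263, stood below Adar at 10.9 ± 0.460, and Tlr3, at 3.39 ± 0.184, stood below Mavs at 6.07 ± 0.478. With exon lengths from the full annotation the control level of Ddx58 was 20.1 CPM per kilobase, below Trim25 (32.7), Eif2ak2 (24.9) and Tbk1 (23.5), so the order among the upper 4 depends on the length used.

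**Figure D3:**
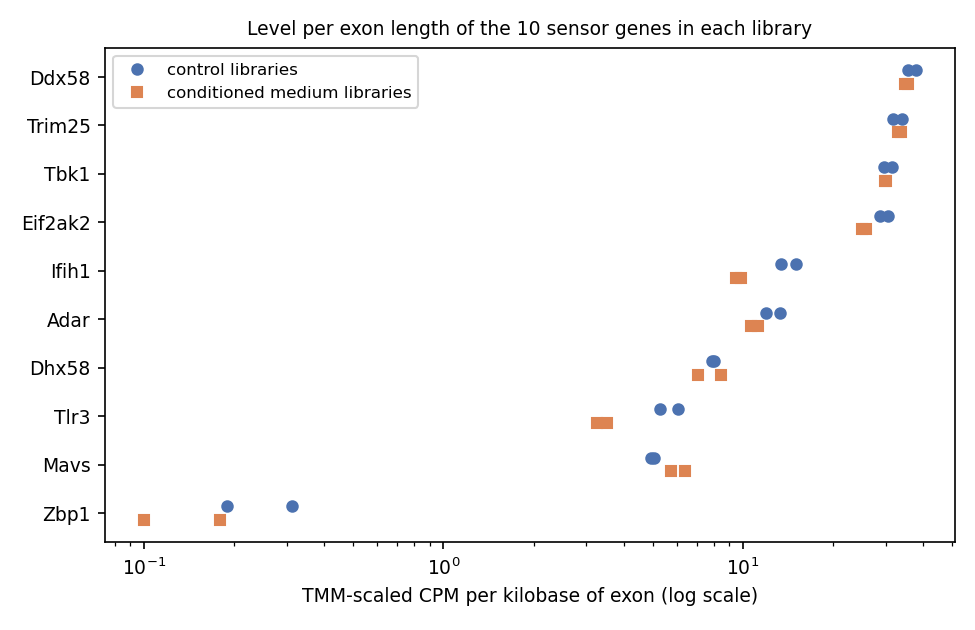
TMM-scaled CPM per kilobase of exon (x axis, log scale) of each sensor gene (y axis) in every control library (circles) and conditioned medium library (squares). The genes span from Zbp1, at 0.251 CPM per kilobase in control, to Ddx58, at 36.7.

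Where reads do not carry their strand, those of a gene and of an overlapping antisense gene cannot be told apart. Strand was not examined in these counts. The exons of Adar overlap those of Chrnb2, a nicotinic receptor subunit gene on the other strand, over 1365 bases, and Chrnb2 held 4, 4, 3 and 2 counts. Dhx58, Tlr3 and Eif2ak2 overlap the noncoding genes Dhx58os, Gm45542 and Gm26637 by 141, 117 and 174 exon bases. For these noncoding genes no row of the count table was matched.

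The partners of these sensors were described through 8 lists of 84 related genes, of which 77 were tested. In all, 14 were called lower and 1 higher, with a median log2 fold change of -0.06, where 8.22% of all tested genes were called lower and 8.54% higher. The edgeR counts of each list at an adjusted p stand beside these shares and are no test of the list. Counts by other tools have another background: over all genes DESeq2 called 437 lower and 467 higher, and limma-voom 1145 and 1180. The interferon receptor and signalling list, the chain that induces most of the sensors, had 4 of 6 genes lower and 0 higher. The median of the list was -0.20, and 2 genes were not called. DESeq2 called 1 lower, limma-voom 4, and neither called any higher. Ifnar1, a receptor chain for type I interferon, fell from 167 and 160 CPM in control to 132 and 124 CPM, or -0.36 ± 0.05 on the log2 scale (edgeR adjusted p = 2.75e-05). Ifnar2, the other chain, was at -0.27, Irf9 at -0.27 and Jak1, a kinase bound to the receptor, at -0.14 (edgeR adjusted p = 0.00480, 0.0163 and 0.0325). Ifnar1 was called under all 15 alternatives. Ifnar2 was not called under 3, Irf9 under 5 and Jak1 under 5, in each case including DESeq2, and their highest adjusted p were 0.125, 0.204 and 0.314.

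Of 17 tested cofactors and regulators of RIG-I and MDA5, 4 were called lower and 0 higher, with a median of -0.06. DESeq2 called 1 lower, limma-voom 4, and neither called any higher. Ddx60, a helicase that promotes signalling by RIG-I-like receptors, fell from 15.8 and 19.4 CPM to 9.67 and 11.7 CPM, or -0.71 ± 0.13 on the log2 scale (edgeR adjusted p = 4.83e-04), and lost its call only without a count filter (adjusted p = 0.0538, with alternatives down to 4.21e-09). Rnf125, a ubiquitin ligase that marks RIG-I and MDA5 for degradation, fell from 7.65 and 6.77 CPM to 4.11 and 4.99 CPM, or -0.65 ± 0.18 on the log2 scale (edgeR adjusted p = 0.0138). The mitochondrial genes Mfn1, which encodes a fusion protein, and Tomm70a, which encodes an import receptor, were at -0.20 and -0.16 (edgeR adjusted p = 0.0240 and 0.0281). Rnf125, Mfn1 and Tomm70a each lost the call under 5 of 15 alternatives, DESeq2 among them, with adjusted p up to 0.160, 0.289 and 0.341.

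In the TBK1, TRAF and IRF list 1 of 12 tested genes was lower and 0 higher, with a median of 0.06. DESeq2 and limma-voom also each called 1 lower and 0 higher. The edgeR count is close to the 8.22% called lower among all tested genes. The gene was Irf7, the interferon-inducible transcription factor that amplifies interferon production. Irf7 fell from 35.1 and 41.6 CPM to 24.2 and 23.3 CPM, or -0.69 ± 0.09 on the log2 scale (edgeR adjusted p = 9.92e-06), and was called under all 15 alternatives. Ifnb1, the gene for interferon beta, held 0 counts in all 4 libraries, which allows up to 0.166 to 0.216 CPM per library (counting error only).

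The endosomal TLR list around Tlr3 had 0 of 8 tested genes lower and 0 higher, with a median of 0.01. DESeq2 and limma-voom called 0. Ticam1, which encodes TRIF, the adaptor of TLR3, had 15.8 and 18.4 CPM in control and 19.6 and 21.8 CPM in conditioned medium, a log2 fold change of 0.28 ± 0.10 that was not called (edgeR adjusted p = 0.0655). It was called with the replicate block and without control replicate 2 (adjusted p = 0.0453 and 0.00726 by edgeR, over alternatives up to 0.471). The log2 fold change was 0.39 without control replicate 2 and 0.18 without control replicate 1 (adjusted p = 0.326 by edgeR).

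Among the cell death partners of ZBP1, 1 of 5 was lower and 0 higher, with a median of -0.12. DESeq2 called 0 and limma-voom 1 lower and 0 higher. Casp8, the protease that restrains necroptosis, was at -0.22 ± 0.06 (edgeR adjusted p = 0.0203). Of the 11 genes around PKR, 2 were lower and 0 higher, with a median of -0.06. DESeq2 called 0 and limma-voom 2 lower and 0 higher. Of all tested genes 8.22% were called lower, so counts of 1 of 5 and 2 of 11 are no result about these lists. Ppp1r15a, a phosphatase subunit that reverses the PKR mark on eIF2α, had 88.0 and 104 CPM in control and 71.5 and 87.5 CPM in conditioned medium, or -0.27 ± 0.08 on the log2 scale (edgeR adjusted p = 0.0234). Eif2s1, the PKR substrate itself, was at -0.15 (edgeR adjusted p = 0.0304). Without control replicate 2 or without conditioned medium replicate 1 Ppp1r15a was at -0.13 and -0.14 and not called (adjusted p = 0.0983 and 0.425), and without conditioned medium replicate 2 it was at -0.43 and called (adjusted p = 0.0183 by edgeR). Casp8, Ppp1r15a and Eif2s1 each lost the call under 5 of 15 alternatives, DESeq2 among them, with adjusted p up to 0.241, 0.518 and 0.347.

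Of 8 tested genes for other proteins that bind or edit double-stranded RNA, 1 was lower and 0 higher, with a median of -0.13. DESeq2 called 0 and limma-voom 1 lower and 0 higher. The edgeR count is near the 8.22% called lower among all tested genes. Dhx9, an RNA helicase, was at -0.17 ± 0.05 (edgeR adjusted p = 0.0215) and lost the call under 4 of 15 alternatives, DESeq2 among them (adjusted p up to 0.406). Without control replicate 1 Dhx9 was at -0.11 and still called (adjusted p = 0.0468 by edgeR). The cytosolic DNA sensing list had 1 of 10 genes lower and 1 higher, with a median of -0.04. These counts are near the 8.22% lower and 8.54% higher among all tested genes. DESeq2 called 0, and limma-voom 1 lower and 1 higher. Tmem173, which encodes STING, the adaptor of DNA sensing, had 25.4 and 25.0 CPM in control and 32.8 and 29.3 CPM in conditioned medium and rose by 0.30 ± 0.08 on the log2 scale (edgeR adjusted p = 0.0164). Samhd1, which hydrolyses deoxynucleotides, was at -0.22 ± 0.06 (edgeR adjusted p = 0.0169). Tmem173 lost the call under 3 and Samhd1 under 5 of 15 alternatives, DESeq2 among them (adjusted p up to 0.240 and 0.239).

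**Figure D4:**
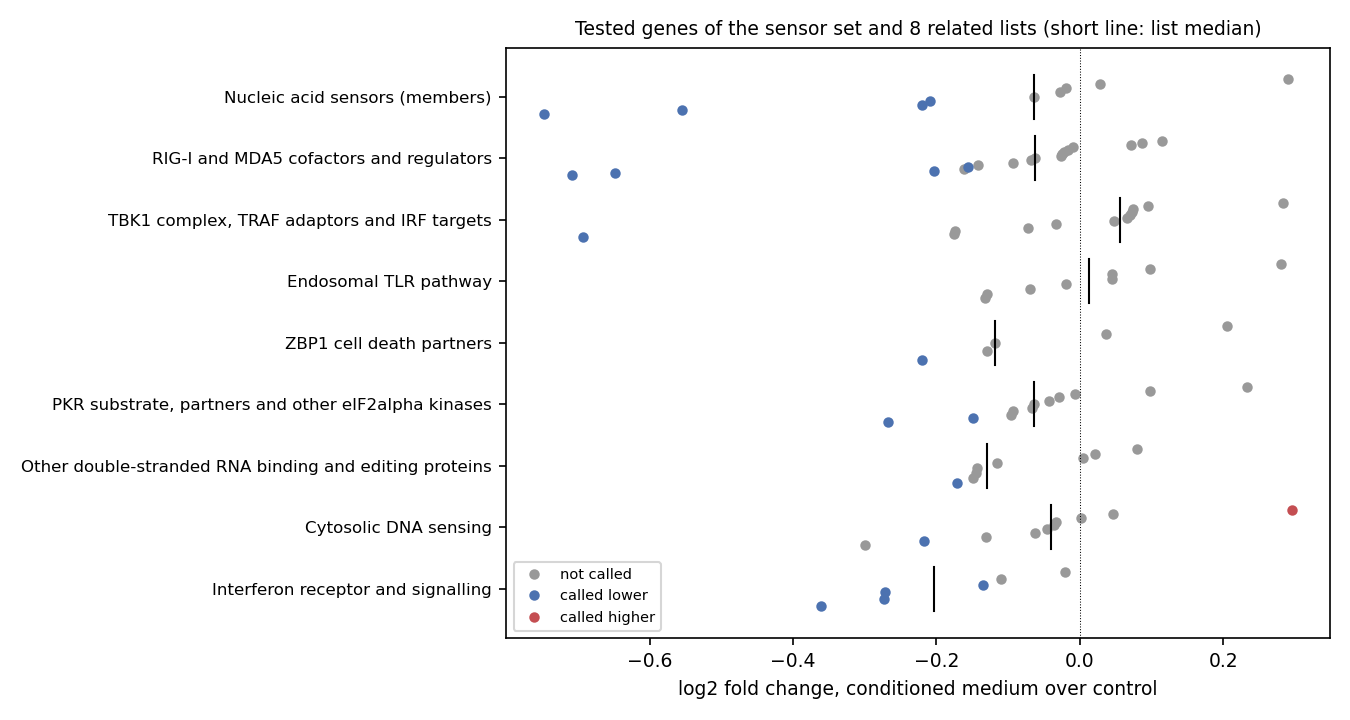
Log2 fold change of conditioned medium over control (x axis) of each tested gene in the sensor set and 8 related lists (y axis); blue points were called lower, red higher and grey not called, and short lines are list medians. The interferon receptor and signalling list has the lowest median of the 8, -0.20, and Tmem173 is the single gene called higher.

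**Figure D5:**
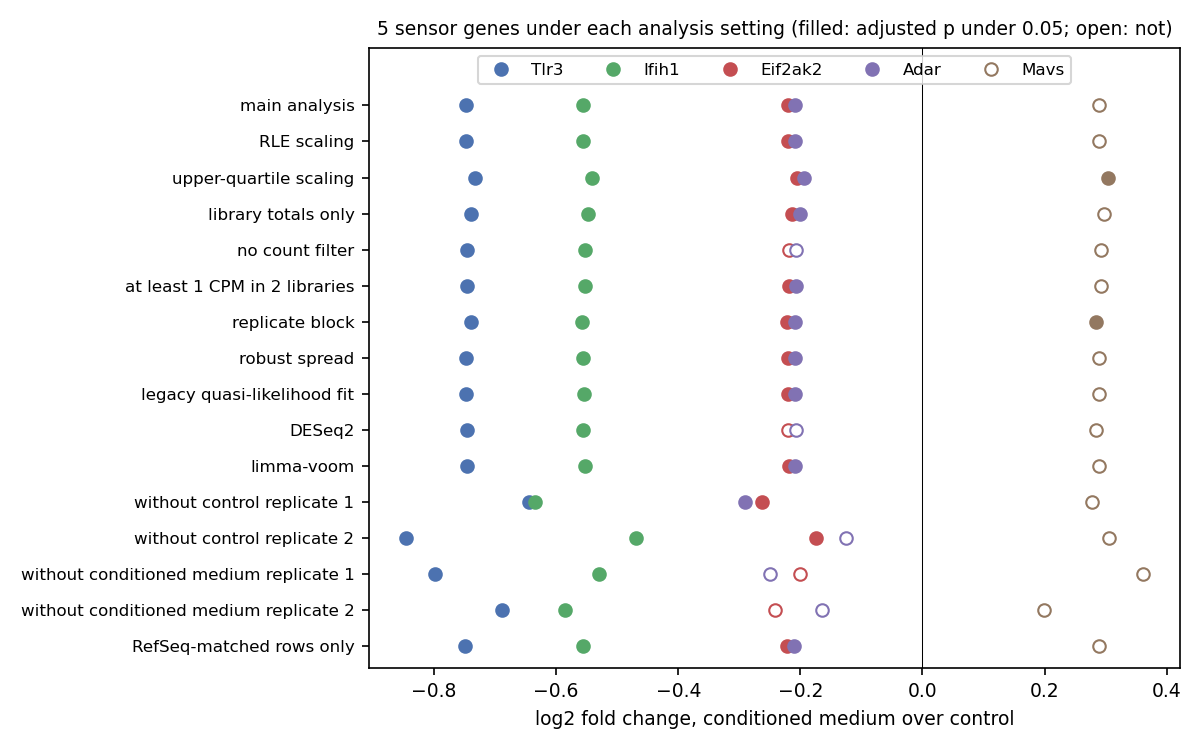
Log2 fold change of 5 sensor genes (x axis) under the main analysis and each alternative setting (y axis), filled where the adjusted p was under 0.05. Tlr3 and Ifih1 are filled in every row, while Eif2ak2, Adar and Mavs are open in some.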

How the data were processed

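Sequencing libraries of 4 mAEC samples were prepared from total RNA with a TruSeq kit, per the labels' protocols. The deposited table holds raw counts per Entrez gene, made with STAR 2.5.2b, featureCounts and Subread 1.4.6-p1 on mm10, per the submitters' processing notes. The sources used here do not give their settings or the annotation release, and thus not how reads shared by genes were counted. Symbols and coordinates came from RefSeq GRCm38.p6 (25275 of 27179 rows matched, the rest holding 6.31% of the counts).

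Raw counts were analysed in R 4.3.3 with edgeR 4.0.16: filterByExpr (minimum count 10, total 15), TMM scaling (factors 0.987 to 1.01), and the two-sided quasi-likelihood test of conditioned medium against control, with Benjamini-Hochberg adjustment over 13897 genes. Genes with an adjusted p below 0.05 were called. An SE is the size of the log2 fold change divided by the square root of F, and 95% intervals use the fit's degrees of freedom (2 residual, 20.1 in all at the median). Alternatives were other scalings, filters, a replicate block, other estimates of the spread, DESeq2 1.42.0, limma-voom (limma 3.58.1) and leaving out each library. Restriction to RefSeq-matched rows and lengths from the full GENCODE annotation were chosen after seeing the data.

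The members and lists were chosen with earlier results of these data known. Named are all members, and in each list the called genes that changed most, at most 4, or, if it had none, the gene of lowest p. A gene of the interferon signalling list is not reported here. Vwf, Cldn5, Kdr, Emcn, Eng, Egfl7, Smtn, Pdgfra, Acta2, Myh11, Col1a2, Lum, Ptprc, Cd68, the macrophage markers at 0, Ifnb1 and the overlapping genes were named after their values were seen. CPM values are computed per library from counts and TMM-scaled library totals.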

Additional observations from a re-analysis of the deposited data

How the results depend on the processing

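Of the 10 sensor genes, 4 were called lower. The number was 2 without a count filter, by DESeq2 and without either conditioned medium library, and the leave-one-out range was 2 to 4. The number called higher was 0, and 1 (Mavs) with upper-quartile scaling and with the replicate block. Over all genes 1143 were called lower and 1187 higher. The counts were 360 and 445 without a count filter and 437 and 467 by DESeq2. Leaving out each library gave 316 to 1622 lower and 390 to 1486 higher, the lowest without conditioned medium replicate 2 (316 and 390) and, next, without replicate 1 of that group (407 and 540). In those fits the spread of the remaining library was taken from the other group. The cause of these shifts was not tested. With the replicate number as a block 1316 genes were lower and 1365 higher. The labels give the numbers but no shared batch, and with 2 pairs the numbers cannot be shown to pair the libraries: the deviations of same-numbered libraries correlated at -0.04 over 10662 well-counted genes. No result named here changed direction with a call.

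Over the alternatives, the named genes' values were on the same side of the threshold in 306 cases, lost the call in 65 and gained it in 4. The median of the 9 tested members, -0.06, was -0.16 without conditioned medium replicate 2 and -0.11 when control replicate 1 was left out. Depth limited Zbp1 most, at 26 counts over 4 libraries.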
